A study of Mus musculus with 6 samples.

Results

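The core circadian clock genes Arntl, Clock, Npas2, Per2, Per3, Cry1, Cry2, Nr1d1, Nr1d2 and Dbp were followed in RNA from whole pancreatic islets of mice. These 10 genes were taken by symbol from a count table of 55536 genes, and all 10 were found once and passed the minimum of 10 counts. Control mice had the genotype Klf4+/+;Gcg-iCre (3 libraries), and knockout mice had the genotype Klf4fl/fl;Gcg-iCre (3 libraries), both on a C57B1/6J background as the series text spells it. Both groups carry Gcg-iCre, in which the glucagon gene drives Cre and so places it in alpha cells, and they differ in whether Klf4, a zinc-finger transcription factor gene, is floxed. Whole islets were sequenced, so the clocks of beta, alpha, delta and non-endocrine cells were measured as one sum. The labels give no sex, age or time of collection. They list the libraries as separate samples without saying whether each came from another mouse, so the p-values measure the spread between these samples, which may be technical.

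The clock is a transcriptional loop that runs in nearly every cell. CLOCK or its relative NPAS2 pairs with BMAL1, the product of Arntl, binds E-box elements and activates the Period and Cryptochrome genes, the Rev-erb genes Nr1d1 and Nr1d2 and the output factor gene Dbp; PER and CRY proteins then inhibit the activator pair, and REV-ERB proteins repress Arntl, Npas2 and Nfil3 through RORE elements. Arntl and Npas2 transcripts therefore peak when those of Nr1d1, Dbp and Per3 are low, with Cry1 late in the cycle, and samples of one clock phase are taken to hold similar levels of each. In mouse islets the loop is known to pace insulin secretion.

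The question asked of these transcripts was whether the 6 libraries share one clock state, within and between genotypes. The controls did not hold one set of levels. Control replicate 1 had the highest and control replicate 3 the lowest level of Per2, Per3, Nr1d1, Nr1d2 and Dbp, and the reverse was true of Arntl, Npas2 and Cry1. Dbp differed 4.33-fold between those control libraries, Per3 3.34-fold and Npas2 3.00-fold. The knockout libraries differed by at most 1.56-fold in any of the 10 genes, and for 8 of the 10 every knockout value lay within the range of the controls, as it did for 25.6% of the genes averaging 50 or more normalized counts. For none of the 10 were the groups without overlap, against 18% of those genes. With control replicate 3 left out, 6 of the 10 had no overlap between genotypes, against 35.1% of those genes. With control replicate 1 or knockout replicate 3 left out, 1 of the 10 had none, against 30.4% and 28.1%. None of the 10 genes passed an adjusted p of 0.05 between genotypes in DESeq2, where 2.19% of all genes tested did. In edgeR none passed either, against 0.115% of all genes tested. At an unadjusted p under 0.05, 2 of the 10 passed in DESeq2 (Per2 and Cry2), against 9.03% of all genes tested, and 1 in edgeR (Cry2), against 9.48%.

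Values below are normalized counts, that is read counts divided by a size factor per library, from libraries of 101277200 to 110243918 counts. At this depth a floor of 3 counts is about 3 normalized counts (2.83 to 3.18), far below every clock gene named here, and it covers counting error only. The islet hormones were present at high level in every library: Ins2 ran from 219447 to 234380 TPM (a level scaled to library size, from counts per exon length), Gcg from 44323 to 83917 and Sst from 8450 to 14991. Klf4 was not called between the genotypes (control mean 2681 ± 592 normalized counts, knockout mean 2386 ± 137, SD over 3 libraries; DESeq2 adjusted p = 0.774). Its log2 fold change was -0.17 with all libraries, -0.04 without control replicate 1 and -0.34 without control replicate 3, where the DESeq2 adjusted p was 0.00568. The gene counts neither show which exons the reads came from nor which cells of the islet. Xist was between 77938 and 108105 normalized counts in the controls and between 12.4 and 30.2 in the knockouts, while Ddx3y, on the Y chromosome, had 0 counts in every control and 5599 to 6265 normalized counts in the knockouts. In this design the sex of the mice cannot be told apart from genotype, so each comparison between genotypes below is also one between the sexes these transcripts mark.

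The summed marker transcripts of acinar, mesenchymal and immune cells did not overlap between the groups. The summed normalized counts of 7 acinar genes ran from 531975 to 1075010 in controls and from 1331280 to 1881240 in knockouts, those of 6 mesenchymal genes from 49621 to 65241 and from 94272 to 100707, and those of 4 immune genes from 1766 to 1902 and from 1980 to 2746. Of the 4 immune genes 2 had a positive and 2 a negative log2 fold change. DESeq2 called 1 immune gene, 0 of the 7 acinar, 4 of the 6 mesenchymal and 4 of 5 hepatocyte genes. Of all genes tested it called 2.19%. In edgeR 2 of these mesenchymal genes and none of the acinar, immune or hepatocyte genes were called, against 0.115% of all genes tested. The sum of 5 hepatocyte genes ran from 143 to 242 in controls and was 73259, 2781 and 162 in knockout replicates 1 to 3. The sum of 4 endothelial genes overlapped, at 61801 to 69688 in controls and 64126 to 74822 in knockouts. No gene of these lists was at 0 in every library. Among the controls the acinar sum was 561353, 1075010 and 531975 in replicates 1 to 3, an order that differs from that of Dbp or Arntl. The sum of 4 delta-cell genes was 459452, 422927 and 348318 in these controls, which is the order of Dbp. Most of it was Sst, at 443209, 404907 and 335783. The sum of 6 beta-cell genes was 18336800, 20512000 and 21403500, which is the order of Arntl. Ins2 alone was at 11805800, 13306700 and 13259700, highest in control replicate 2. Of genes averaging 50 or more normalized counts, 17.7% held the control order of Dbp and 19% that of Arntl. The sum of 6 alpha-cell genes ran from 4065810 to 5864710 in controls and from 2990060 to 3691330 in knockouts, while the beta-cell and delta-cell sums of the genotypes overlapped. In RNA of whole islets, fewer cells of a type and less RNA per cell cannot be told apart. The part of cell make-up in the clock values, among the controls or between genotypes, was not tested.

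Promoter sequence was read from RefSeq (GRCm38.p6), in windows from 250 bases before to 50 bases after each annotated start, because the members that moved together between libraries are known targets of shared elements. Windows were found for 9 of the 10 genes; Per2 was not matched. The letters searched, on both strands, were CACGTG for the E-box, TTATGTAA or TTATGCAA for the D-box (bound by DBP, TEF, HLF and NFIL3), TAGGTCA or TGGGTCA for the RORE core, and CCCCACCC or GGGCGTG for a KLF motif. The runs below hold each match found, in capitals, with its flanks, 5′ to 3′ along the gene.
Per3 (D-box, chr4:151044796-151044890, minus strand): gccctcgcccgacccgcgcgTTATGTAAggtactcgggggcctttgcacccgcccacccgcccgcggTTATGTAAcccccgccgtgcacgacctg
Cry1 (E-box, chr10:85185089-85185134, minus strand): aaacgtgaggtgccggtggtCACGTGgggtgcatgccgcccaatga
Arntl (RORE core, chr7:113207530-113207558, plus strand): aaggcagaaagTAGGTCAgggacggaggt
Nr1d1 (KLF motif, chr11:98775520-98775567, minus strand): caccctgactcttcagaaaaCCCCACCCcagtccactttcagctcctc
Nr1d2 (KLF motif, chr14:18239202-18239248, minus strand): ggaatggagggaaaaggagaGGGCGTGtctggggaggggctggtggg

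Per3 held 2 D-boxes with identical letters, at positions -205 to -198 and -158 to -151 from the start. It was the only member with a D-box, which 1.98% of the 27025 genes in the table held. Cry1 was the only member with an E-box, at positions -60 to -55, against 8.09% of genes. Arntl was the only one with a RORE core, 30 to 36 bases after one of its annotated starts, against 7.35% of genes. Nr1d1 and Nr1d2 held a KLF motif, against 19.3% of genes. Among 16 other clock genes with a window, the E-box was found in Bhlhe41, Ciart, Per1, Tef and Tspan4, the D-box in Per1 and Timeless, the RORE core in Nfil3, and the KLF motif in Fbxl21, Nampt and Usp2. A match is a description of letters, and no match says only that these letters are not in this window.

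Arntl (ENSMUSG00000055116, chromosome 7, 113207465 to 113314126, plus strand, GRCm38) encodes BMAL1, the partner that every activator pair needs. Its normalized counts in control replicates 1 to 3 were 1217, 1700 and 2620, and the knockout libraries, in the same numbering, held 1465, 1764 and 1991. Values below keep that order of replicates. Control replicate 3 was the highest of the 6 libraries and control replicate 1 the lowest, and the knockouts lay between them. The log2 fold change of knockout against control was -0.09 ± 0.34 (SE), with a 95% interval from -0.76 to 0.58 (DESeq2 adjusted p = 0.975). The sign turned without control replicate 3, to 0.25, and without knockout replicate 1, to 0.024. Exons of Arntl share 33 bases with Gm45355 on the opposite strand.

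Clock (ENSMUSG00000029238, chromosome 5, 76209868 to 76304792, minus strand) encodes the activator partner of BMAL1 and is known to cycle weakly or not at all in many tissues. It was the steadiest member. Controls held 14735, 14362 and 16302 normalized counts, and knockouts 15898, 15764 and 15840. The groups overlapped, and the log2 fold change was 0.07 ± 0.07 (SE; DESeq2 adjusted p = 0.845), which leaves a 95% interval from 0.947-fold to 1.16-fold.

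Npas2 (ENSMUSG00000026077, chromosome 1, 39193731 to 39363236, plus strand) encodes the relative of CLOCK that can take its place, and its gene is repressed by REV-ERB proteins. Its normalized counts were 362, 502 and 1086 in the controls, whereas the knockouts held 880, 827 and 1030. Control replicates 1 and 2 were below every knockout, while control replicate 3 was above all of them. The log2 fold change was 0.49 ± 0.48 (SE; DESeq2 adjusted p = 0.814). Without control replicate 3 it was 1.08 ± 0.18 with a DESeq2 adjusted p of 5.89e-07, so 1 library decided whether Npas2 was called. In that fit 4 of the 10 members passed (Npas2, Per2, Per3 and Dbp), against 6.28% of all genes tested.

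**Figure D1:**
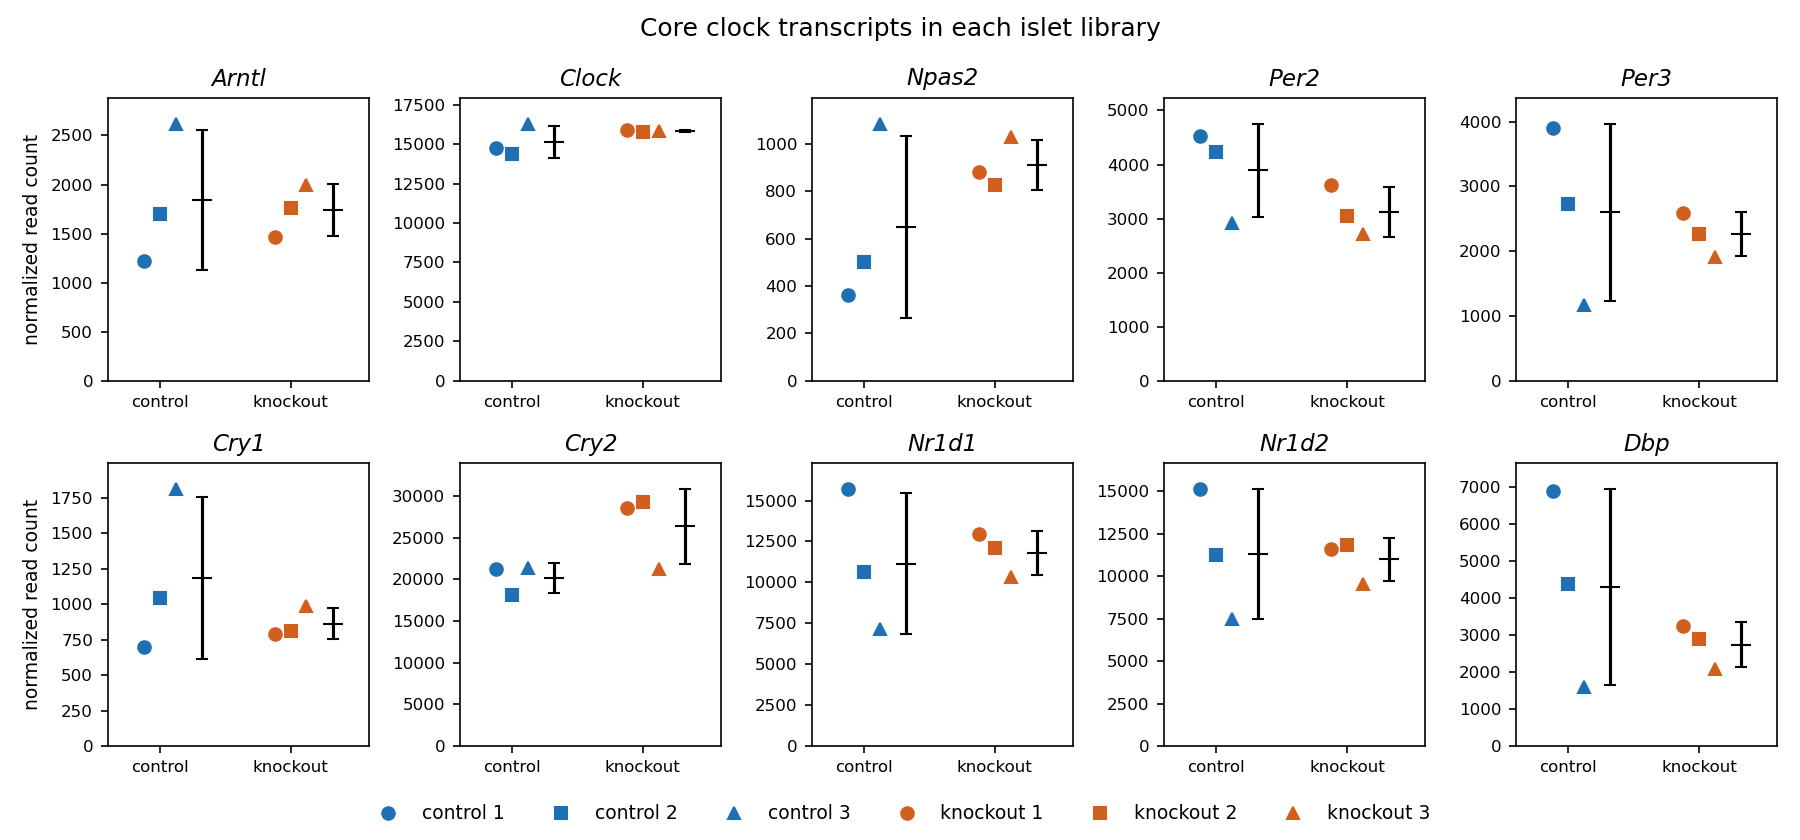
Normalized read count (linear axis from 0) of each of the 10 core clock genes in the 3 control libraries (blue) and the 3 knockout libraries (orange), with marker shape giving the replicate number and bars the mean ± SD. Control 1 and control 3 sit at opposite ends of the controls for 8 genes, for example at 6909 and 1595 for Dbp, and the knockouts lie closer together.

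The Period genes encode the inhibitory partners of the Cryptochromes. Per2 (ENSMUSG00000055866, chromosome 1, 91415982 to 91459324, minus strand) had normalized counts of 4535, 4234 and 2916 in the controls, while the knockouts held 3613, 3041 and 2709. The groups overlapped only through control replicate 3. The log2 fold change was -0.32 ± 0.16 (SE; unadjusted p = 0.0418 and adjusted p = 0.402 in DESeq2). Without control replicate 3 it was -0.49, with a DESeq2 adjusted p of 0.00288.

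Per3 (ENSMUSG00000028957, chromosome 4, 151003652 to 151044665, minus strand), the Period gene with the D-boxes printed above, was at 3898, 2727 and 1167 normalized counts in controls and at 2594, 2266 and 1914 in knockouts. The highest and the lowest of the 6 libraries were both controls. The log2 fold change was -0.20 ± 0.49 (SE; DESeq2 adjusted p = 0.955), with a 95% interval from 0.444-fold to 1.70-fold. It was -0.55 without control replicate 3 (DESeq2 adjusted p = 0.0232) and 0.21 without control replicate 1 (adjusted p = 0.918), so the direction followed which control was left out.

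The Cryptochrome genes encode the main inhibitors of the activator pair, and the order of the libraries differed between them. Cry1 (ENSMUSG00000020038, chromosome 10, 85131700 to 85185064, minus strand) was at 698, 1044 and 1814 normalized counts in controls and at 790, 811 and 990 in knockouts. As for Arntl, control replicate 3 was highest and control replicate 1 lowest. Knockout against control, its log2 fold change stood at -0.46 ± 0.41 (SE), and the DESeq2 adjusted p was 0.788. The change was -0.013 without control replicate 3.

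Cry2 (ENSMUSG00000068742, chromosome 2, 92403646 to 92434043, minus strand) did not follow the order of the controls that 8 members showed. It was at 21205, 18121 and 21303 normalized counts in controls and at 28558, 29338 and 21207 in knockouts. Knockout replicates 1 and 2 were above every control, and knockout replicate 3 was level with control replicates 1 and 3. The log2 fold change was 0.38 ± 0.12 (SE), with a 95% interval from 1.11-fold to 1.54-fold, an unadjusted p of 0.00164 and an adjusted p of 0.0648 in DESeq2. Its edgeR adjusted p was 0.361. Cry2 crossed the threshold in DESeq2 without the filter on low counts (adjusted p = 0.0499), with the replicate number as a block (0.0494) and without knockout replicate 3 (6.77e-05, log2 fold change 0.52). The adjusted p was 0.557 without knockout replicate 1. Of all genes tested, 2.17% passed without the filter, 2.47% with the block and 1.49% without knockout replicate 3. At an adjusted p of 0.1 Cry2 was the 1 member that passed, against 3.55% of all genes tested. With TMM scaling the groups did not overlap, as for 18.1% of genes averaging 50 or more normalized counts. Its exons share 295 bases with D930015M05Rik on the opposite strand, and since the strand setting of the counting is not stated, reads of the pair cannot be told apart there.

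The Rev-erb genes encode nuclear receptors that repress Arntl, and they were the closest pair of the set. Nr1d1 (ENSMUSG00000020889, chromosome 11, 98767932 to 98775333, minus strand) reached 15708, 10608 and 7133 normalized counts in the controls, and the knockouts held 12962, 12101 and 10316. Nr1d2 (ENSMUSG00000021775, chromosome 14, 18204054 to 18239127, minus strand) was at 15150, 11283 and 7510 in the controls and at 11616, 11841 and 9561 in the knockouts. For both genes all 3 knockouts lay inside the range of the controls.

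The log2 fold changes were 0.08 ± 0.34 (SE) for Nr1d1 and -0.04 ± 0.27 for Nr1d2, with DESeq2 adjusted p-values of 0.976 and 0.983. Both signs turned with 1 library left out. Nr1d1 was at -0.16 without control replicate 3 and at 0.41 without control replicate 1. Nr1d2 was at 0.23 without control replicate 1 and at 0.05 without knockout replicate 3. Within a library the log2 difference Nr1d1 minus Nr1d2 stayed between -0.09 and 0.16 in all 6 libraries, although each gene differed about as much as 2.20-fold and 2.02-fold among the controls. Exons of Nr1d1 share 263 bases with Thra on the opposite strand.

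Dbp (ENSMUSG00000059824, chromosome 7, 45705088 to 45710203, plus strand) encodes the D-box activator that carries the clock signal to output genes. It had the widest range of the set. Its controls held 6909, 4386 and 1595 normalized counts, and its knockouts 3254, 2897 and 2082. The knockouts were below control replicates 1 and 2 and above control replicate 3. Between genotypes the log2 fold change was -0.65 ± 0.60 (SE; DESeq2 adjusted p = 0.796), with a 95% interval from 0.284-fold to 1.44-fold. Without control replicate 3 it was -1.04, with a DESeq2 adjusted p of 0.0353, and without control replicate 1 it was -0.13. Exons of Dbp share 539 bases with Sphk2 on the opposite strand.

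**Figure D2:**
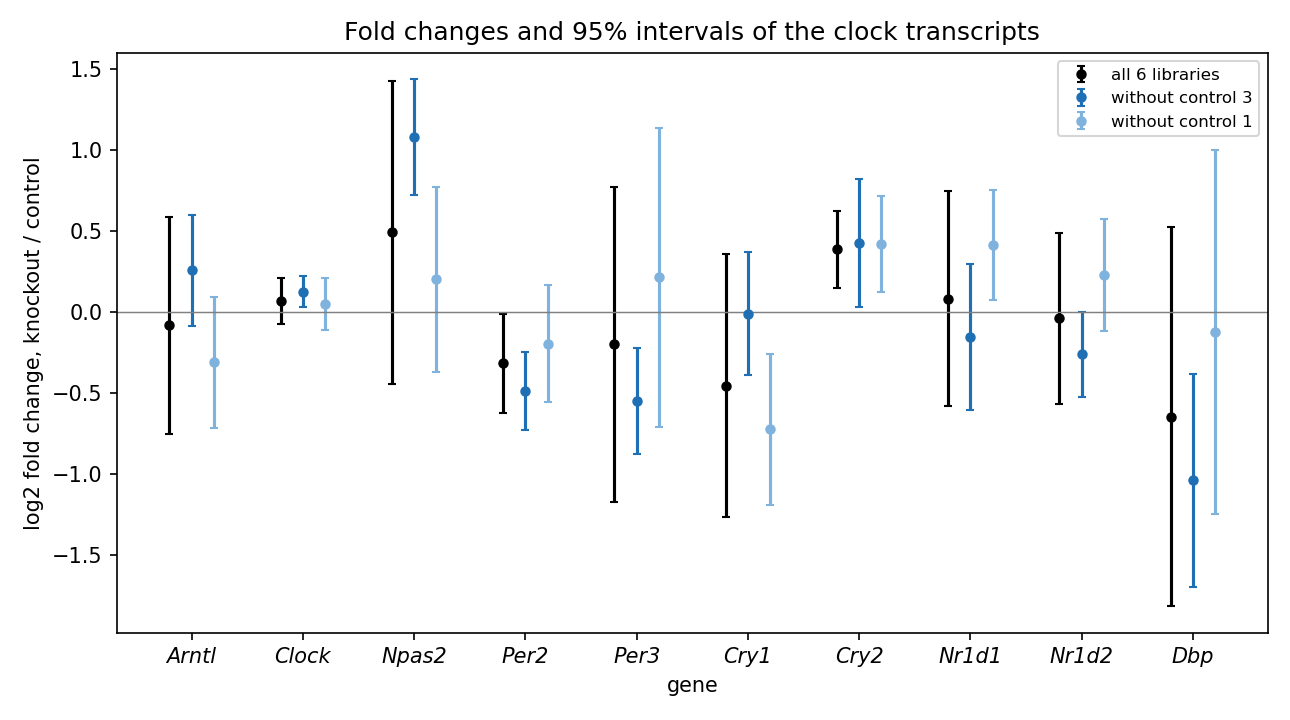
Log2 fold change of knockout against control (vertical axis) with its 95% interval from DESeq2 for each of the 10 core clock genes, with all 6 libraries, without control 3 and without control 1. Npas2 stands at 0.49, 1.08 and 0.20 and Dbp at -0.65, -1.04 and -0.13 in these 3 fits.

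Per exon length, Nr1d1 and Cry2 were the most abundant members. Mean levels in the controls were 84.5 ± 36.7 TPM for Nr1d1, 73.9 ± 9.21 for Cry2 and 48.7 ± 18.6 for Nr1d2 (SD, n = 3 each). In the knockouts the same genes were at 88.3 ± 9.33, 96.0 ± 14.7 and 46.9 ± 4.53 TPM. Nr1d1 and Cry2 overlapped in TPM over the 6 libraries and do not differ beyond their spread, whereas Nr1d2 lay below Cry2 in each library.

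Clock followed at 23.3 to 27.2 TPM and Dbp at 12.02 to 56.3 TPM, a range that takes in that of Clock. Per2 was at 10.9 to 18.9 TPM, which overlapped with Dbp. The 4 members with the lowest medians, Cry1 (5.10 to 12.2 TPM), Per3 (2.74 to 9.89), Arntl (3.95 to 7.85) and Npas2 (1.84 to 5.11), overlapped in a chain. In control replicate 3 Cry1 was at 12.24 TPM, above Dbp (12.02) and Per2 (11.23). The order among them changed with the library: in control replicate 1 Per3 was at 9.89 TPM and Arntl at 3.95, and in control replicate 3 Per3 was at 2.74 and Arntl at 7.85.

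The libraries were next ordered by the contrast between opposite phases of the loop. The mean log2 normalized count (plus 1) of Arntl, Clock and Npas2 minus that of Nr1d1, Nr1d2, Dbp, Per2 and Per3 was -2.06, -1.31 and 0.21 in control replicates 1 to 3. It was -0.98, -0.79 and -0.34 in knockout replicates 1 to 3. Such a difference is taken within a library and is nearly free of scaling between libraries. The controls spanned 2.27 on the log2 scale and the knockouts 0.64, with the 3 knockouts between control replicates 2 and 3. Controls averaged -1.05 ± 1.16 and knockouts -0.70 ± 0.33 (SD, 3 libraries each), and the difference of 0.35 was smaller than the SD of the controls. That difference was -0.15 without control replicate 1 and 0.98 without control replicate 3. As a score over the members it was given no test.

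The single pair Arntl minus Dbp gave the same order of the libraries within each genotype. It was -2.50, -1.37 and 0.72 in the controls, a span of 3.22, and -1.15, -0.72 and -0.06 in the knockouts, a span of 1.09. Control replicate 3 was the only library in which the Arntl count exceeded the Dbp count. Arntl minus Nr1d1 was -3.69, -2.64 and -1.44 in the controls and -3.14, -2.78 and -2.37 in the knockouts, and here the 3 knockouts lay between control replicates 1 and 3 on both sides of control replicate 2.

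**Figure D3:**
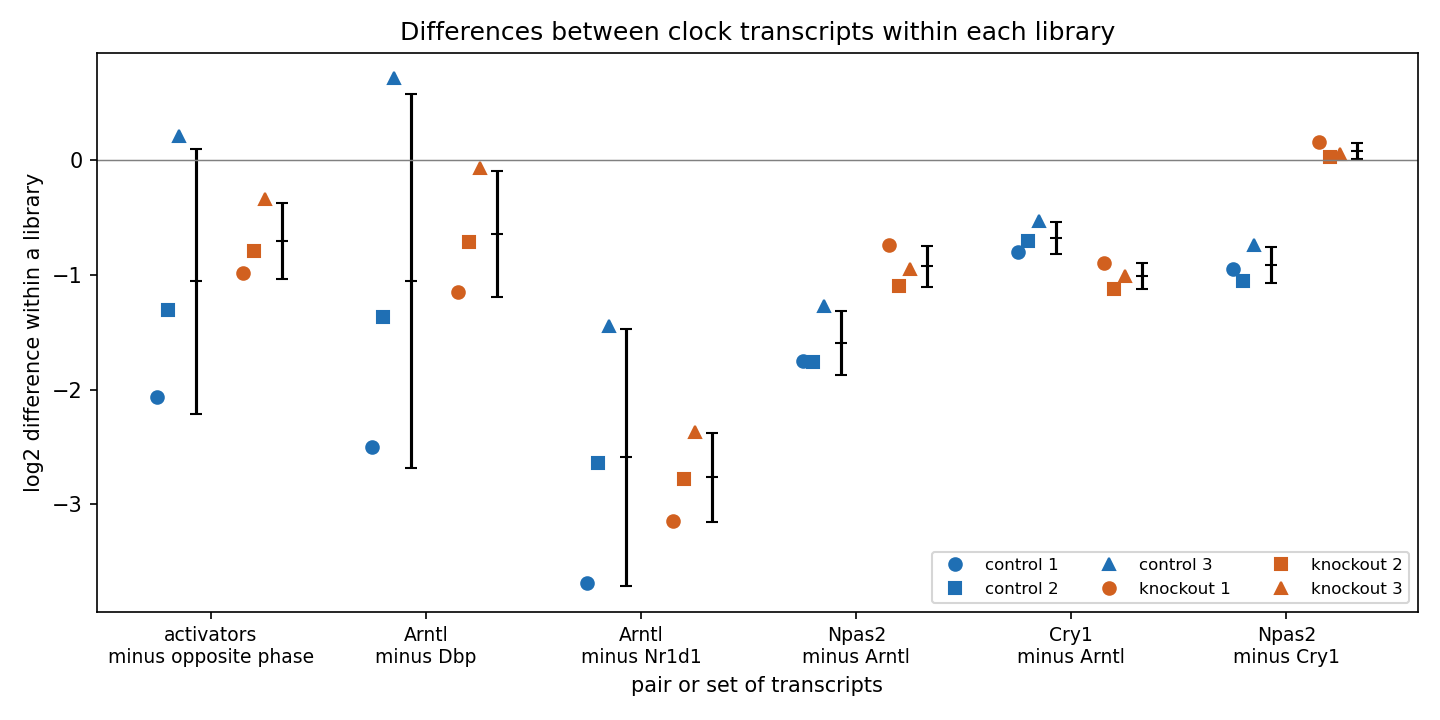
Log2 difference between clock transcripts within each library (vertical axis) for 6 pairs or sets (horizontal axis), with controls in blue, knockouts in orange, marker shape for the replicate number and bars for the mean ± SD. In the first 3 the controls spread over 2.27, 3.22 and 2.24 and enclose the knockouts; in the last 3 the groups do not overlap.

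Some pairs of genes that peak on the same side of the loop gave another picture. These pairs were chosen after their values were seen and were given no test. Npas2 minus Cry1 follows from the pairs with Arntl and is no separate result. The share of all gene pairs without overlap was not computed. Npas2 minus Arntl was -1.75, -1.76 and -1.27 in the controls and -0.73, -1.09 and -0.95 in the knockouts, so Npas2 was higher relative to Arntl in every knockout. Cry1 minus Arntl was -0.80, -0.70 and -0.53 in the controls and -0.89, -1.12 and -1.01 in the knockouts, so Cry1 was lower relative to Arntl in every knockout. Npas2 minus Cry1 averaged -0.91 ± 0.16 over the controls and 0.08 ± 0.07 over the knockouts (SD, 3 libraries per genotype), which is 0.99 apart on the log2 scale. The controls spanned 0.31 in that last difference, although Npas2 and Cry1 themselves varied 3.00-fold and 2.60-fold among them. Nr1d1 minus Dbp, a pair from the opposite side, overlapped, at 1.18, 1.27 and 2.16 in controls and 1.99, 2.06 and 2.31 in knockouts. Nr1d1 minus Nr1d2 overlapped as well.

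A fit with the Arntl minus Dbp difference of each library as a covariate beside genotype was added after the data were seen. It leaves 3 residual degrees of freedom, and Arntl and Dbp are not read from it. Because Arntl is part of the covariate, its values for Cry1 and Npas2 restate in part the chosen pairs above, so they are given as a description and no call is read from them. The log2 fold changes were -0.52 ± 0.11 (SE) for Cry1, 0.45 ± 0.14 for Npas2, 0.29 ± 0.07 for Nr1d1 and 0.39 ± 0.12 for Cry2 in DESeq2. Those of Per3 (0.17) and Nr1d2 (0.14) were opposite in sign to those without the covariate. With the covariate 4.6% of all genes tested passed in DESeq2 and 0.924% in edgeR. Because the covariate is made of clock transcripts, it is no independent measure of the time of collection.

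The spread within a genotype was then set beside that of all genes. Over the 3 controls the SD of the log2 normalized count had a median of 0.56 over the 10 members, against 0.13 for the 15811 genes averaging 50 or more normalized counts. Over the 3 knockouts it was 0.19, against 0.09. The SD was larger in the controls for 9 of the 10 members, Cry2 being the exception, and for 65% of all genes. The SD of Dbp in controls was 1.08, at percentile 99.3 of all genes, that of Per3 was 0.89 (percentile 98.8) and that of Npas2 was 0.81 (percentile 98.5). In the knockouts those 3 genes had SDs of 0.33, 0.22 and 0.16. Clock had an SD of 0.10 in controls, at percentile 35.7, and of 0.0061 in knockouts.

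**Figure D4:**
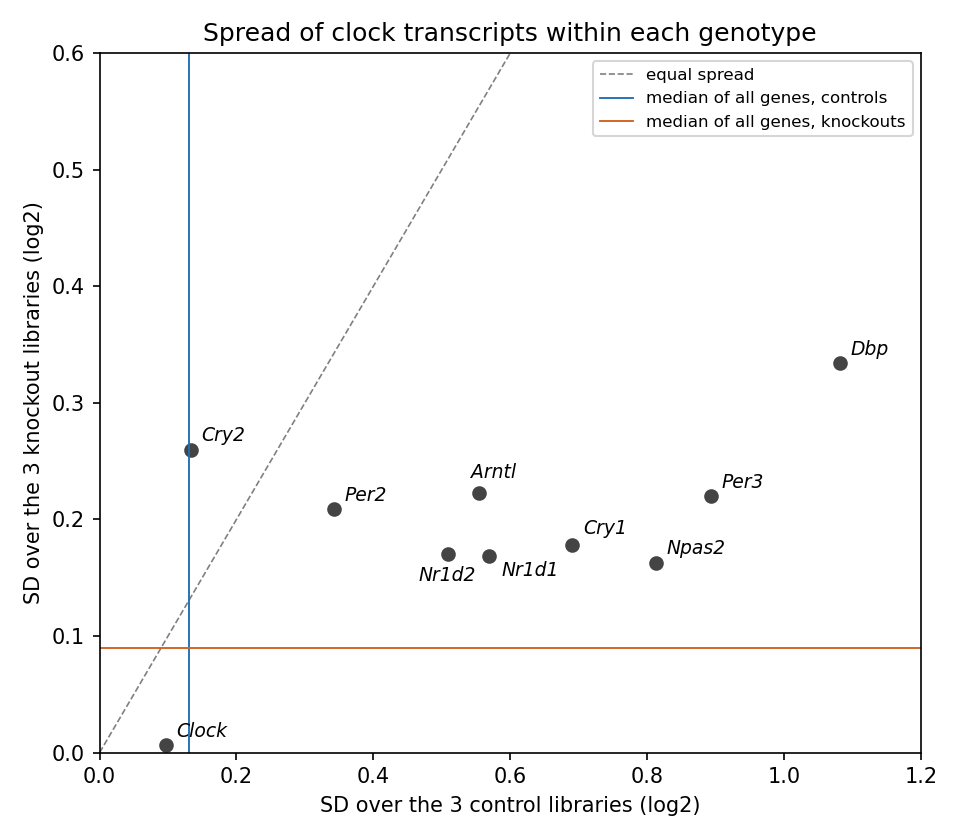
SD of log2 normalized counts over the 3 control libraries (horizontal axis) and over the 3 knockout libraries (vertical axis) for each of the 10 core clock genes, with lines at the medians of all genes (0.13 and 0.09) and a dashed line of equal spread. The points other than Cry2 lie below the dashed line, with Dbp at 1.08 and 0.33.

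An order of the libraries was shared by several members. It was chosen after their values were seen, so the shares over all genes are a description and no test. Control replicate 1 was the highest and control replicate 3 the lowest control, and knockout replicate 3 the lowest knockout, for 5 of the 10 members (Per2, Per3, Nr1d1, Nr1d2 and Dbp), an order held by 7.63% of those 15811 genes. The order of the controls alone was held by 17.7%. The mirrored order, with control replicate 3 and knockout replicate 3 highest, was held by Arntl, Npas2 and Cry1 and by 8.94% of these genes, and its control order alone by 19%. Since clock genes act on each other, these are not independent observations. Same-numbered libraries of the genotypes did not deviate together over all genes (correlation of deviations from -0.06 to 0.01).

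Other genes of the loop, listed with earlier results of these data known, were described in the same way. Of 16 further genes of the clock machinery none passed between genotypes, against 2.19% of all genes tested in DESeq2 and 0.115% in edgeR. They had a median log2 fold change of -0.04 against -0.0066 for genes averaging 50 or more normalized counts, and 1 had an unadjusted p under 0.05 in DESeq2 and 0 in edgeR, against the 9.03% and 9.48% of all genes given above. The gene with the lowest p was Bhlhe40, which encodes a repressor of E-box transcription (-0.36 ± 0.17, DESeq2 adjusted p = 0.357). Bhlhe40 passed without control replicate 3 (-0.53, DESeq2 adjusted p = 0.00866) and was at -0.18 without control replicate 1 (adjusted p = 0.756).

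Named after their values were seen, Ciart, which encodes a repressor of the activator pair, was at 323, 208 and 103 normalized counts in controls and at 221, 179 and 181 in knockouts. Nfil3, the D-box repressor gene, ran the other way, at 1783, 2840 and 3531 in controls and 2280, 2820 and 2866 in knockouts. Ciart followed the control order of Dbp, and Nfil3 that of Arntl. Of the 16 machinery genes 6 held the control order of Dbp and 2 that of Arntl. Over genes averaging 50 or more normalized counts the shares were 17.7% and 19%. With knockout replicate 3 also lowest or highest, the counts were 4 and 1, against 7.63% and 8.94%. Rora, which encodes an activator at RORE elements, was level, at 7132 to 7806 normalized counts over the 6 libraries, as was the kinase gene Csnk1d at 12357 to 14112.

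Of 6 output genes of the clock none passed between genotypes in either tool, against 2.19% of all genes tested in DESeq2 and 0.115% in edgeR. At an unadjusted p under 0.05 none did either, against 9.03% and 9.48% of all genes. Those with the lowest p were the cell-cycle kinase gene Wee1 (-0.16 ± 0.12, DESeq2 adjusted p = 0.711) and Hlf (-0.26 ± 0.41, adjusted p = 0.917), the latter encoding a PAR-bZIP factor like DBP. Hlf stood at 2295, 1765 and 897 normalized counts in controls and 1470, 1562 and 1112 in knockouts. It passed without control replicate 3 (-0.55, DESeq2 adjusted p = 0.0243), and its sign turned without control replicate 1 (0.052, adjusted p = 0.973). Tef, the remaining PAR-bZIP gene, was at 9122, 6815 and 3872 in controls and 6587, 5867 and 5094 in knockouts. All 3 PAR-bZIP genes, Dbp, Hlf and Tef, thus had control replicate 1 highest and control replicate 3 lowest. Nampt and Usp2 showed no such range: the controls held 4733 to 5323 normalized counts of Nampt and 757 to 897 of Usp2. Within its small range Nampt held the control order of Arntl. Of the 6 output genes 3 held the control order of Dbp and 1 that of Arntl. Over genes averaging 50 or more normalized counts the shares were 17.7% and 19%.

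**Figure D5:**
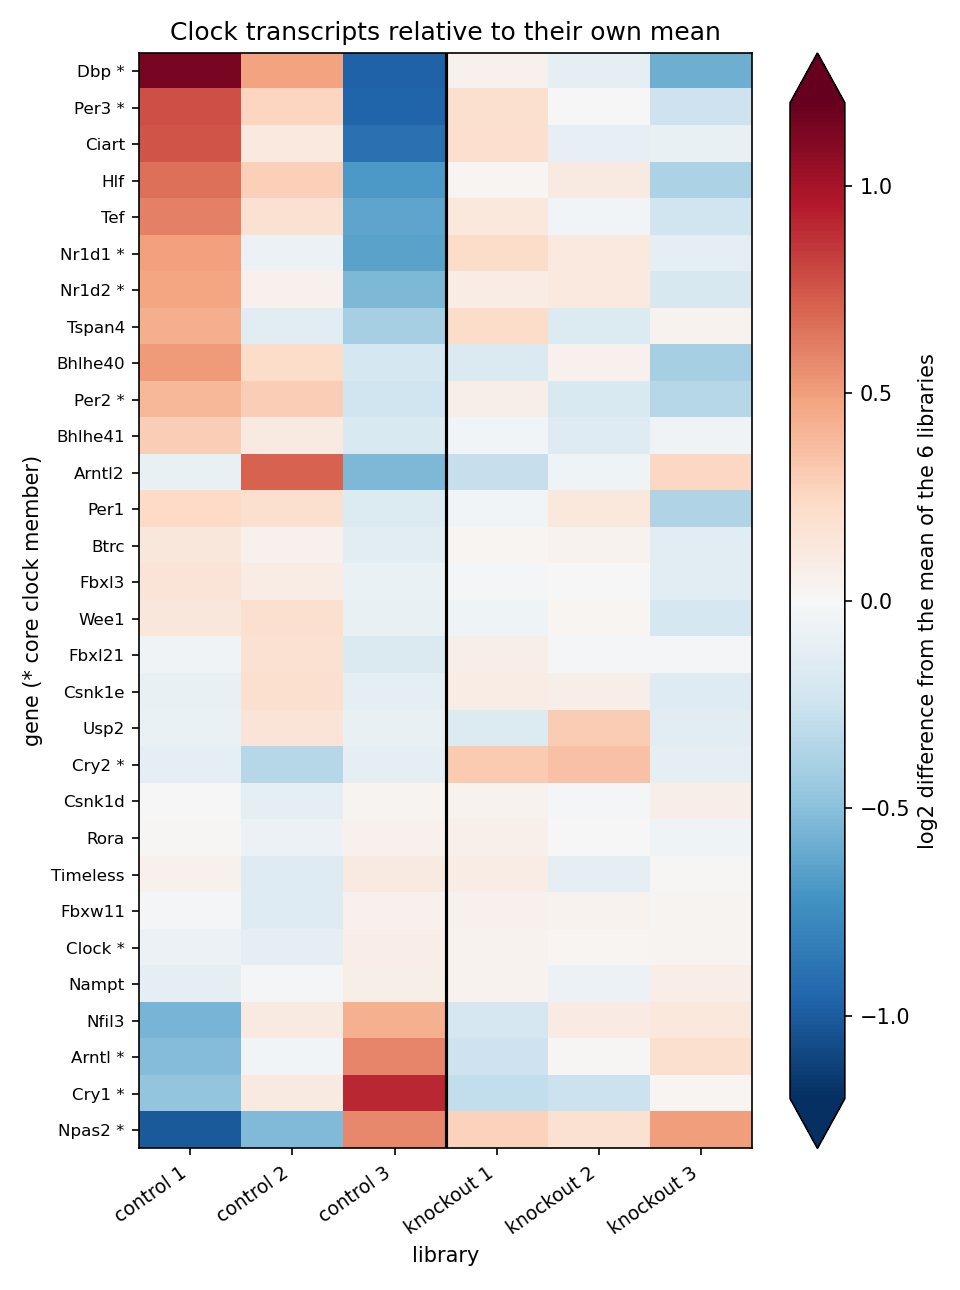
Log2 difference of each clock gene from its own mean over the 6 libraries (colour) in each library (columns) for clock genes with a mean of at least 50 normalized counts, sorted by control 1 minus control 3, with the core members marked by a star. Dbp, Per3, Ciart, Hlf and Tef head the list, Nfil3, Arntl, Cry1 and Npas2 close it, and the control 1 and control 3 columns have opposite colours for these genes.

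Glucocorticoid-induced genes are given beside the clock, since the hormone is known to act on Per1 and Per2. Of 9 such genes 4 rose in the knockouts in DESeq2 and 1 (Zbtb16) passed in edgeR. Of all genes tested, 1.53% rose in DESeq2 and 0.115% passed in edgeR in either direction. Zbtb16 rose from 310 ± 107 to 2581 ± 387 normalized counts, Fkbp5 from 11550 ± 2373 to 19561 ± 1184, Errfi1 from 5877 ± 1128 to 8693 ± 368 and Pdk4 from 5268 ± 224 to 6345 ± 374 (SD, n = 3 each). Their DESeq2 adjusted p-values were 2.07e-45, 1.42e-06, 0.001 and 0.0363. The call of Pdk4 was lost with the replicate block (DESeq2 adjusted p = 0.0533), without control replicate 1 (0.128) and without knockout replicate 1, 2 or 3 (0.0912, 0.0894 and 0.224). Per1, which is both a clock gene and a glucocorticoid target, was at 11480, 11062 and 8663 normalized counts in controls and 9480, 10627 and 7560 in knockouts (log2 fold change -0.17 ± 0.13, DESeq2 adjusted p = 0.72). Among the controls Zbtb16 was at 330, 194 and 405 and Fkbp5 at 11111, 9427 and 14111, so that control replicate 2 was lowest and control replicate 3 highest, as for Clock and Cry2 but not for the other 8 members. Tsc22d3, Sgk1, Dusp1, Errfi1 and Per1 were highest in control replicate 1 and lowest in control replicate 3, as Dbp was; Errfi1 was at 7043, 5795 and 4792. Their part in the clock values was not tested.

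Most immediate early genes were lowest in control replicate 3. The summed normalized counts of 7 such genes were 68728, 65550 and 46807 in control replicates 1 to 3 and ran from 65530 to 76399 in the knockouts. Fos, Fosb, Jun, Junb, Egr1 and Atf3 were each lowest of the 6 libraries in control replicate 3, whereas Ier2 was at 1577, 1603 and 1731 in the controls, highest in replicate 3. Of the 7, Fosb rose in the knockouts (log2 fold change 0.51 ± 0.12, DESeq2 adjusted p = 0.00286, edgeR adjusted p = 0.187), where 1.53% of all genes tested rose in DESeq2. Control replicates 1 to 3 held 3148, 2879 and 2015 normalized counts of Klf4. The control with the lowest Dbp thus also held the lowest immediate early sum and the lowest Klf4, and whether these are related was not tested.

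Genes whose pattern over the 6 libraries was most like that of a member were named by Pearson's r of log2 normalized counts, over 15811 genes and with no test. With so few libraries high values are common in a table of this size. Closest to Dbp were A330076H08Rik (r = 0.998), Msh5, Gipr, the gene of the receptor for the incretin GIP (r = 0.992), Man2c1 and Aaed1. Gipr was at 14808, 13355 and 9543 normalized counts in controls and 12145, 11476 and 10822 in knockouts. Closest to Arntl were Clns1a (r = 0.998), Fam183b, Ndufa8, Uqcrq and Ndufa2, the last 3 being genes of the mitochondrial respiratory chain. Clns1a, A330076H08Rik and Gipr lie on chromosome 7, as do Arntl and Dbp, and the others lie on other chromosomes. The share of all genes on chromosome 7 was not computed, and a link was not tested. Genes of these patterns ranged less than Dbp and Arntl: Ndufa8 ran from 2781 to 3344 normalized counts over the 6 libraries.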

How the data were processed

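RNA of whole islets was sequenced in 6 libraries, 3 per genotype, grouped by the genotype in the labels. The authors deposited raw read counts per gene for 55536 genes. Per the submitters' processing notes the build was mm10 and the tools FastQC, STAR, featureCounts and DESeq2, with versions and strand setting not given in the sources used here. Totals ran from 101277200 to 110243918 counts per library, and no pair of replicates agreed within sampling noise (chi-square over degrees of freedom of 40 to 120). From these counts DESeq2 1.42.0 (R 4.3.3) gave size factors, normalized counts and Wald tests of genotype over genes with at least 10 counts in total, with Benjamini-Hochberg adjusted p under 0.05 as the threshold, since the series text names DESeq2. The edgeR 4.0.16 quasi-likelihood test was the alternative. Both were run on simulated counts with the same dispersion for every gene. The genes here differ in spread, so that run does not show how the tests act on the clock genes. Log2 values carry a pseudocount of 1. TPM values were computed from the deposited counts and GENCODE exon lengths (GRCm38), to which all 55536 gene IDs matched. Loci and exon overlaps come from the same annotation.

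The 10 members and all gene lists were chosen with earlier results of these data known. Named genes were all members, genes past the threshold in each list or else the 2 with the lowest p, the checks Klf4, Xist, Ddx3y, Ins2, Gcg and Sst, and the 5 genes most like Dbp and like Arntl. An item that this rule would name is not reported here. Other named genes (Ciart, Nfil3, Tef, Per1, Rora, Csnk1d, Nampt, Usp2, Tsc22d3, Sgk1, Dusp1, Fos, Jun, Junb, Egr1, Atf3 and Ier2, and those named only for a motif or an overlapping exon) were chosen after their values were seen. Alternatives were other scaling, filters and thresholds, the replicate number as a block, leaving out each library, and, added after the data were seen, a clock covariate.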

Additional observations from a re-analysis of the deposited data

How the results depend on the processing

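The count of genes past the threshold was 389 and moved to 29 in edgeR, 614 at an adjusted p of 0.1, 778 with the Arntl minus Dbp covariate and 233 with that covariate in edgeR. It ran from 153 to 952 when 1 library was left out, the highest being without control replicate 3. The count of clock members past the threshold, 0 of 10, was 1 (Cry2) without a filter on low counts, at an adjusted p of 0.1 and with the replicate block, and ran from 0 to 4 when 1 library was left out. The count of members whose groups did not overlap, 0, was 1 (Cry2) with TMM scaling and ran from 0 to 6 when 1 library was left out, where non-overlap was also more common over all genes (35.1% without control replicate 3, 18% with all libraries). Over all genes the replicate numbers did not pair the libraries. The correlations of same-numbered deviations were -0.05, -0.06 and 0.01, and 1 of 6 libraries correlated best with its own number. Arntl minus Dbp, however, rose from replicate 1 to replicate 3 in both genotypes. With the block the SE fell from 0.34 to 0.14 for Arntl and from 0.48 to 0.23 for Npas2. The DESeq2 adjusted p was then 0.128 for Npas2 and 0.0989 for Per2, so neither passed. With the replicate block Cry2 had a log2 fold change of 0.37 (DESeq2 adjusted p = 0.0494) and Nr1d2 turned to 0.011, and 405 genes passed. Cry2 was at 0.38 without a filter. With the covariate, read as a description, log2 fold changes were 0.45 for Npas2, -0.52 for Cry1 (-0.52 in edgeR), 0.39 for Cry2 and 0.29 for Nr1d1, and the signs turned for Per3 (0.17 in both tools), Nr1d2 (0.14 in both tools) and Hlf (0.0063, and 0.0093 in edgeR). With 1 library left out, log2 fold changes ran from -0.31 to 0.25 for Arntl, from 0.20 to 1.08 for Npas2, from -0.49 to -0.20 for Per2, from -0.55 to 0.21 for Per3, from -0.73 to -0.013 for Cry1, from 0.30 to 0.52 for Cry2, from -0.16 to 0.41 for Nr1d1, from -0.26 to 0.23 for Nr1d2, from -1.04 to -0.13 for Dbp, from -0.55 to 0.052 for Hlf and from -0.34 to -0.04 for Klf4, which passed without control replicate 3. The activator minus opposite-phase difference between genotypes, 0.35, ran from -0.15 to 0.98 and was -0.17 for Arntl minus Nr1d1 alone. Pdk4 lost its call with the replicate block and in 4 of the 6 fits without 1 library. The cause of these shifts was not tested. Of the alternative values computed for the members, 103 kept direction and side of the threshold, 12 passed it and 11 changed sign; 5 of those 12 and 4 of those 11 came from the covariate fits, from which no call is read. The values of the clock genes lie far above the floor of 3 counts; power at other depths or numbers of libraries was not tested.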
